A study of Mus musculus with 14 samples.

Results

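The genes described here are 10 keratins and surface proteins grouped as mesothelial, with Krt14, Muc16 and Cdh1 the lowest per kilobase of transcript. They are the simple keratins Krt7, Krt8, Krt18 and Krt19, the basal keratin Krt14, the uroplakins Upk1b and Upk3b, mesothelin (Msln), mucin 16 (Muc16) and E-cadherin (Cdh1). They were chosen by name, all 10 are listed, and they are 10 of 15894 genes in the table. RNA was measured in the epicardium and subepicardium, the outer layer of the heart, dissected at E16.5 from the ventral or dorsal surface of mouse hearts in a study of how coronary lymphatic vessels grow beneath this layer. Female hearts gave 3 libraries from each side, and male hearts gave 4 from the ventral and 3 from the dorsal side, each from a pool of 2 hearts. A further male library is dorsal in its title and ventral in its tissue field, so it entered no comparison. Every library, in all groups, carries the genotype label Tbx18Cre, while the study speaks of wild-type hearts, and the mice were of mixed background. In that allele Cre follows Tbx18, a gene active in the epicardium and in some other cardiac cells, and the labels state no treatment. Litters are not tied to libraries, and female libraries are numbered 1 to 3 and male libraries 4 to 7, so sex and any difference in preparation cannot be told apart.

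The epicardium is the mesothelium of the heart, a single flat sheet that covers the myocardium and faces the pericardial cavity. Mesothelial cells build a filament network from simple keratins, in which a type II chain (Krt7, Krt8) pairs with a type I chain (Krt18, Krt19). Their free surface carries mesothelin, a lipid-anchored protein, and mucin 16, a large membrane mucin that binds it. Upk1b and Upk3b belong to the uroplakins, first known from the lining of the bladder, and Upk3b is used as a marker of mesothelium. When epicardial cells leave the sheet to become fibroblasts and mural cells, they lose epithelial features.

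All 10 are protein-coding genes, and the 5 keratins lie in the keratin clusters of 2 chromosomes (GRCm38 positions from GENCODE M21). Krt7 spans chr15:101411043-101430313 on the plus strand, 566 kb from Krt8 at chr15:101996698-102004482 on the minus strand. Krt18 follows at chr15:102028180-102032027 on the plus strand, so that Krt8 and Krt18, whose proteins pair in the filament, have their starts facing each other across 23.7 kb. Krt19 at chr11:100140810-100148665 and Krt14 at chr11:100203162-100207548, both on the minus strand, are 54.5 kb apart. Upk1b is at chr16:38773184-38800328 (minus), Upk3b at chr5:136038496-136046487 (plus), Msln at chr17:25748613-25754378 (minus), Muc16 at chr9:18495455-18674530 (minus) and Cdh1 at chr8:106603351-106670246 (plus). The level of Krt8 is uncertain, because 27.2% of the 60-base windows of its transcripts also occur in Krt8-ps or Gm36026. For Krt14, 9.61% of the windows occur in Krt16 or Krt17, for Msln 2.26% and for Krt7 0.507% occur elsewhere, and no other member shares a window.

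Promoter windows, 250 bases before to 50 after a RefSeq gene start (GRCm38.p6), were found for 6 of the 10 genes. Those of Krt7 and Krt14 lie wholly inside the GENCODE spans given above, so their RefSeq starts differ from the ends of those spans. The windows of Krt7, Krt8 and Krt18, which lie in 1 cluster and moved together, and of Upk3b, a marker of mesothelium, are printed. They run 5′ to 3′ on the gene's strand up to 10 bases past the start. Capitals mark matches, on either strand, to the letters TATAAA, to the GC box GGGCGG, to the TEAD motif GGAATG, to the AP-1 motif TGANTCA, to CACCTG, the E-box that Snail and Zeb factors bind, and to the GATA motif AGATAA.
Krt7 (chr15:101412153-101412412, plus): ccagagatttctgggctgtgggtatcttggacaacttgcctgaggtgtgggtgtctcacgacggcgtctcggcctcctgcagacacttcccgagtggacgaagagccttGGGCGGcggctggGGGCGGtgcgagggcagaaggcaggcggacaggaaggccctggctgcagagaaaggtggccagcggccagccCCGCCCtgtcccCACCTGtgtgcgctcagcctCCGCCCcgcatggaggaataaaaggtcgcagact
Krt8 (chr15:102004333-102004592, minus): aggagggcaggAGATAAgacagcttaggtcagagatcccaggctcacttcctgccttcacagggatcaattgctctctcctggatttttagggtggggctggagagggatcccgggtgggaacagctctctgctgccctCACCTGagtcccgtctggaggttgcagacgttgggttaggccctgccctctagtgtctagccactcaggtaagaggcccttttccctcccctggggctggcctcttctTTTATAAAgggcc
Krt18 (chr15:102027966-102028225, plus): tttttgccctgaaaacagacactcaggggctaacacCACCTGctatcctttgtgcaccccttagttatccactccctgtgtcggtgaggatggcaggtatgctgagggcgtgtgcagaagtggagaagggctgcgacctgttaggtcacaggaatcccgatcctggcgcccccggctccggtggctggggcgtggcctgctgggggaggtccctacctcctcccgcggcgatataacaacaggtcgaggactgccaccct
Upk3b (chr5:136038246-136038505, plus): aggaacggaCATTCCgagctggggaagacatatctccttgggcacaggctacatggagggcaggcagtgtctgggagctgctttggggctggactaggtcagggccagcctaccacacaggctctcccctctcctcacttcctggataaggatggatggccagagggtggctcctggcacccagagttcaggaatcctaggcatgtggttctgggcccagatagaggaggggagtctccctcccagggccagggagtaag
CACCTG was found in the windows of Krt7, Krt8 and Krt18, 3 of the 6 members matched, and in 20.2% of all 32851 promoter windows. GGGCGG was found in the Krt7 window alone of the 6, at 4 places, and in 35.7% of all windows. TATAAA occurred in Krt8, where matches on both strands overlap at the start (13.6% of all windows), AGATAA also in Krt8 (11.2%), and GGAATG in Upk3b and Krt14 (14.7%). TGANTCA was in none of the 6 and in 7.81% of all windows. Muc16 and Krt14 were the other members with a window, and Krt19, Upk1b, Msln and Cdh1 were not matched. These are matches of letters, and none was tested as a binding site.

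The tissue label was checked against epicardial genes. All 14 genes of a list of epicardial transcription factors and enzymes are in the table, and Wt1, Tbx18, Bnc1, Aldh1a2 and Lrrn4 had reads in every library. Reads on listed genes ranged from 13918995 to 25221314 per library. The layer was not pure: markers of ventricular cardiomyocytes summed to between 13736 and 38222 normalized CPM per library. Male ventral library 7 stood apart, with blood endothelium markers summing to 171, against 718 to 1250 in the other 13 libraries, and erythroid markers to 291, against at most 122. Of 13 markers of lung, thymus, stratified, liver, kidney and gut epithelia, 12 are not listed in the table and the other, Afp, reached at most 5.14 in any library.

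Values are the authors' normalized CPM, read counts scaled to a common library size. Between genes they were compared per kilobase of the principal transcript, averaged over the 14 libraries. On that scale Upk3b (278) and Msln (276) had the highest means, followed by Krt19 (166), Upk1b (132), Krt18 (82.4), Krt8 (46.7), Krt7 (25.5), Krt14 (7.58), Muc16 (0.973) and Cdh1 (0.416). Krt8, Krt7 and Krt14 ranked 6, 7 and 8 in all 14 libraries. Upk3b was first or second in every library and Msln within the top 4, so the order of these neighbours was not settled, and Muc16 and Cdh1 changed places in female dorsal 3. The simple keratins thus ran from 25.5 to 166 per kilobase. Krt14, which elsewhere marks the basal layer of stratified epithelium, the mucin Muc16 and the adhesion protein Cdh1 were present at low levels on that scale.

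In female hearts all 10 genes were higher ventrally: every ventral library lay above every dorsal one for each of them, where 23.2% of the 14411 genes tested did the same. With limma's moderated test on log2(value + 1), adjusted by Benjamini-Hochberg over all genes tested, 9 of the 10 were called higher ventrally, and 14.5% of all genes were. The median log2 change of the 10 was 2.40, beside 0.01 over all genes. Fewer mesothelial cells and less of these RNAs per cell cannot be told apart in such bulk samples.

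The simple keratins fell together on the dorsal side of female hearts. Krt7 had 72.4, 92.8 and 73.3 normalized CPM in female ventral libraries 1, 2 and 3 and 8.61, 30.8 and 12.7 in female dorsal libraries 1, 2 and 3. Krt8, its type II relative, had 52.1, 105 and 69.5 ventrally and 7.09, 21.5 and 10.6 dorsally. In both genes female dorsal 1 was lowest and female dorsal 2 came closest to the ventral libraries, without reaching them. The log2 change was 2.31 ± 0.37 (SE, 3 against 3 libraries, adjusted p = 0.00245, limma) for Krt7 and 2.52 ± 0.37 (adjusted p = 0.00178) for Krt8. Krt18, the type I partner of Krt8, had 94.0, 159.7 and 109 ventrally and 9.81, 30.2 and 24.5 dorsally. Krt19, the shortest type I keratin, which lacks a tail domain, had 169, 275 and 228 ventrally and 28.8, 61.6 and 57.3 dorsally. The groups were again apart, with a log2 change of 2.53 ± 0.36 (adjusted p = 0.00152) for Krt18 and 2.21 ± 0.28 (adjusted p = 9.06e-04) for Krt19. As folds of the group means these 4 changes were 4.58, 5.77, 5.61 and 4.55.

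Krt14 moved the same way from a low level. It had 7.80, 20.5 and 12.0 in female ventral libraries and 1.92, 2.42 and 2.02 in female dorsal ones, or 149, 283 and 204 reads against 41, 44 and 40. The dorsal libraries were close to each other and well below the lowest ventral library, and the log2 change was 2.12 ± 0.36 (adjusted p = 0.00317, limma). The uroplakins were separated as clearly. Upk1b, a tetraspanin, had 203, 321 and 312 ventrally and 30.3, 60.2 and 68.8 dorsally. Upk3b, a single-pass membrane protein, had 700.4, 1012 and 855 ventrally and 90.2, 243 and 197 dorsally. Female dorsal 1 was lowest for both, and their log2 changes were 2.42 ± 0.29 (adjusted p = 7.77e-04) and 2.37 ± 0.32 (adjusted p = 0.00119).

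Mesothelin and the mucin that binds it had, with Krt14, the widest gaps between the female group means. Msln had 374, 691 and 506 ventrally and 38.2, 145 and 65.1 dorsally, a fold of 6.32 in the means and a log2 change of 2.81 ± 0.41 (adjusted p = 0.00169, limma). Muc16 had 23.6, 47.8 and 26.5 ventrally and 4.32, 7.0 and 3.52 dorsally, a fold of 6.60 and a log2 change of 2.47 ± 0.33 (adjusted p = 0.00113). Krt14 had a fold of 6.33. Cdh1, the adhesion molecule of epithelial junctions, was the member not called. It had 1.96, 4.45 and 1.85 ventrally and 0.208, 0.681 and 1.27 dorsally, which rest on 37, 61 and 31 reads against 4, 12 and 25. These libraries did not overlap, and the log2 change of 1.10 ± 0.39 gave an adjusted p of 0.0610, between 0.0501 and 0.209 under 13 alternatives. The other 9 were called under all 13 alternatives, with adjusted p at most 0.0176.

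**Figure D1:**
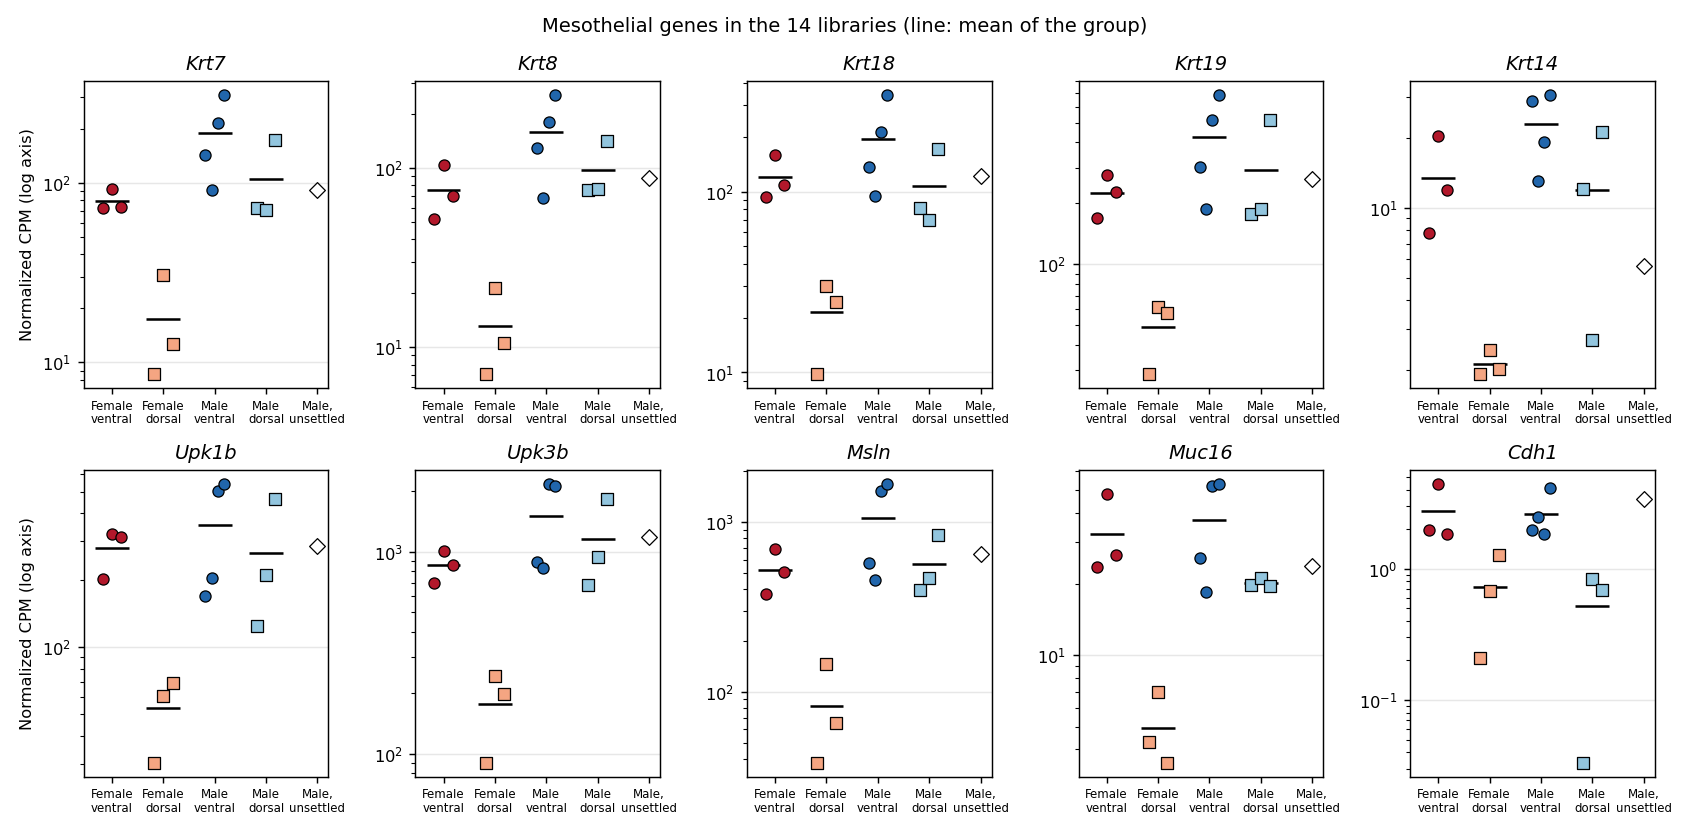
Normalized CPM (log axis) of each gene in every library, by group, with a line at the mean of each group of 3 libraries (4 in male ventral) and an open diamond for the male library of unsettled region. Female dorsal libraries lie lowest for 9 of the 10 genes, and the Cdh1 point at the foot of its panel is male dorsal 4, with 0 reads.

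In male hearts the same comparison gave no call. Of the 10 genes, 0 passed, and so did 0 of all 14917 genes tested (0% of genes called), where 2083 genes had an unadjusted p under 0.05 in limma and edgeR's quasi-likelihood test on recovered reads also called 0. Of the 10, Cdh1 alone had an unadjusted p under 0.05. All 10 log2 changes were above 0, with a median of 0.74 beside 0.03 over all genes. Of the 10, 1 gene had ventral libraries all above the dorsal ones, where 6.18% of all genes did. Without male ventral 7, the library that stood apart, 0 of the 10 were called and the log2 changes ran from 0.15 (Upk3b) to 1.06 (Cdh1).

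Among the simple keratins in male hearts, Krt7 had 144, 91.2, 217 and 309.8 in male ventral libraries 4, 5, 6 and 7 and 72.6, 71.1 and 173 in male dorsal libraries 4, 5 and 6. Krt8 had 129, 68.0, 180.5 and 256 ventrally and 75.6, 76.3 and 141 dorsally. For both, male dorsal 6 lay above male ventral 4 and 5, and ventral 7 was highest. Krt18 had 136, 94.2, 214 and 343 ventrally and 81.3, 69.7 and 171 dorsally. Krt19 had 303, 187, 518 and 684 ventrally and 176, 188 and 513 dorsally. Male dorsal 6 was the highest dorsal library for all 4, as high as or higher than male ventral 4 and 5, and the regions overlapped for all 4 genes. The log2 changes were 0.83 ± 0.42 (4 against 3 libraries, adjusted p = 0.397, limma) for Krt7, 0.60 ± 0.40 (adjusted p = 0.503) for Krt8, 0.82 ± 0.42 (adjusted p = 0.409) for Krt18 and 0.55 ± 0.47 (adjusted p = 0.606) for Krt19. Krt14 had 28.9, 13.1, 19.2 and 30.7 ventrally and 12.1, 2.69 and 21.2 dorsally, so that male dorsal 5 was near the female dorsal level while dorsal 6 lay above male ventral 5 and 6. Its log2 change was 1.16 ± 0.54 (adjusted p = 0.376).

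The surface proteins were spread in the same manner. Upk1b had 170.4, 204, 504 and 543 in male ventral libraries and 124, 210.2 and 462 in male dorsal ones. Upk3b had 892, 834, 2171 and 2123 ventrally and 681, 939 and 1831 dorsally. Msln had 573, 453, 1517 and 1678 ventrally and 396, 465 and 831 dorsally. The 2 high male ventral libraries, 6 and 7, thus held about as much Upk3b as each other, and dorsal 6 held more than ventral 4 and 5. The log2 changes were 0.44 ± 0.50 (adjusted p = 0.700, limma) for Upk1b, 0.37 ± 0.43 (adjusted p = 0.713) for Upk3b and 0.75 ± 0.46 (adjusted p = 0.475) for Msln. Muc16 had 25.7, 18.5, 52.0 and 53.1 ventrally and 19.9, 21.3 and 19.6 dorsally, and here dorsal 6 did not stand above the other dorsal libraries. Its log2 change was 0.72 ± 0.34 (adjusted p = 0.384). Cdh1 had 1.97, 2.46, 1.86 and 4.10 ventrally. Dorsally it had 0 reads in male dorsal 4, which allows up to 0.233 normalized CPM at a limit of 3 reads, and 0.841 and 0.687 in dorsal 5 and 6. It was the member whose male regions did not overlap, with a log2 change of 1.25 ± 0.36 (unadjusted p = 0.00639 in limma, adjusted p = 0.285).

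Over both sexes, with sex as a covariate, limma called all 10 genes higher ventrally, and 9.8% of all 15772 genes. The log2 changes ran from 1.18 (Cdh1, adjusted p = 0.00957) to 1.71 (Msln, adjusted p = 0.0165). These calls draw on the female libraries already described and are not separate evidence. Upk1b (adjusted p = 0.0323) and Upk3b (adjusted p = 0.0315) lost the call when any 1 of the 6 female libraries, male ventral 6, male ventral 7 or male dorsal 4 was left out, with adjusted p up to 0.0798 and 0.0787, and in edgeR (0.0585 and 0.0521). Upk3b also lost it with the replicate block and the GC and length trend removed (0.0505). Krt19 (adjusted p = 0.0253) lost it without female ventral 2, female ventral 3, female dorsal 1 or female dorsal 2, with adjusted p up to 0.0648.

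The question whether the regional change differs between the sexes was tested directly. In the fit without pairing, 0 of the 10 genes were called in limma and 0 in edgeR, where 2.73% of all genes were called in limma. The unadjusted p in limma was under 0.05 for 8 of the 10, and for 2428 of all 15772 genes in either direction. For 9 genes the regional change was smaller in males, by 0.96 (Krt14) to 2.06 (Msln) on the log2 scale, and adjusted p ran from 0.0937 (Muc16) to 0.573 (Krt14). For Cdh1 it was larger in males by 0.14 ± 0.52 (adjusted p = 0.926). Over all genes, the deviations of same-numbered ventral and dorsal libraries from their group means correlated with r = 0.169 to 0.427. Libraries of unlike number were not compared in this way, and no source says what a number stands for. With the number as a replicate block 8 of the 10 genes were called, all with a smaller change in males. In that direction 2.29% of all genes were called. The exceptions were Krt14 (adjusted p = 0.263 with the block) and Cdh1 (adjusted p = 0.979). Among the 8, adjusted p with the block ran from 8.75e-05 (Upk1b) to 0.00874 (Muc16). Male ventral 7 has no dorsal partner of settled region and added nothing to the regional terms of the blocked fit.

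The folds of same-numbered libraries show what the blocked fit used. Upk3b was 7.77, 4.17 and 4.34 times higher ventrally in female numbers 1, 2 and 3, and 1.31, 0.888 and 1.19 times in male numbers 4, 5 and 6. Krt8 stood at 7.35, 4.86 and 6.56 times in females and 1.71, 0.891 and 1.28 times in males. Msln stood at 9.80, 4.76 and 7.78 times in females and 1.45, 0.974 and 1.82 times in males. In each of these genes the lowest female fold was above the highest male fold. The same held for 8 of the 10 genes and for 12.4% of all genes. Krt14 was an exception, since its fold of 4.87 in male number 5 lay above the 4.07 of female number 1. Among the male numbers, 6 was the highest of the 3 on both sides for Upk3b, at 2171 and 1831, while 4 and 5 changed order, with 892 and 834 ventrally and 681 and 939 dorsally. For Muc16 number 6 was the highest of the 3 ventrally (52.0) and the lowest dorsally (19.6).

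**Figure D2:**
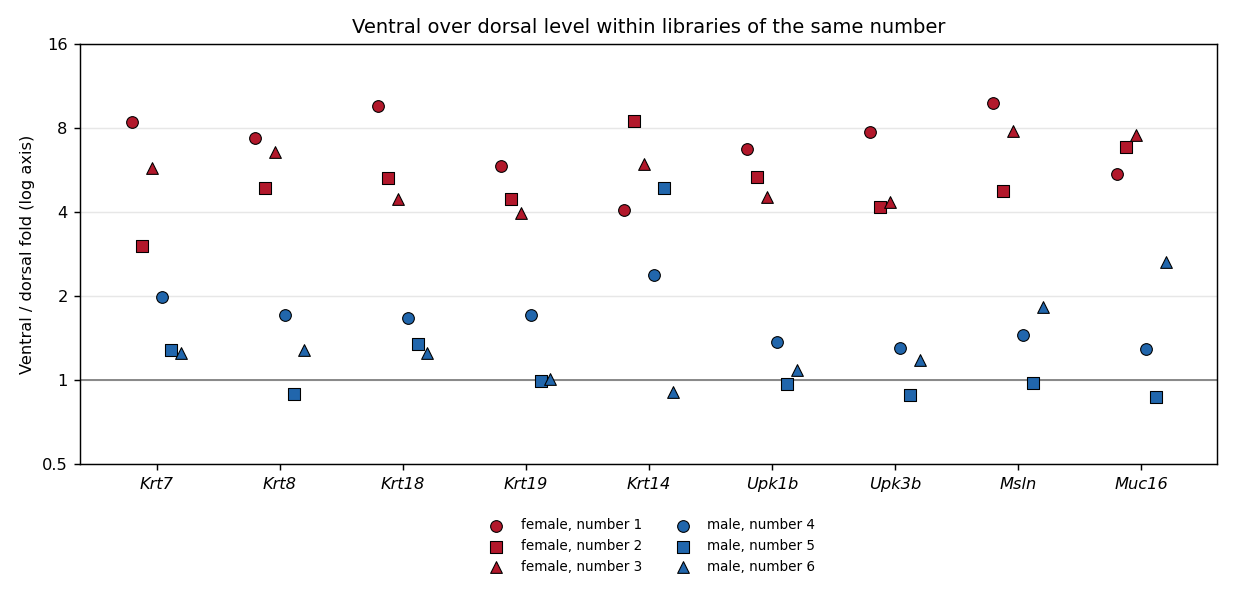
Ventral over dorsal fold (log axis) within libraries of the same number for 9 genes, with Cdh1 left out because male dorsal 4 has 0 reads. Red points are female numbers 1 to 3 and blue points male numbers 4 to 6, and the grey line marks equal levels: for each gene but Krt14 all red points lie above all blue points.

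The sexes were then compared with region as a covariate. The fit took same-numbered ventral and dorsal libraries as independent, although sex differs only between numbers, so its p-values may be too small. Limma called 6 of the 10 genes higher in males, where 4.4% of all genes were. The 6 were Krt8 (log2 1.86 ± 0.38, adjusted p = 0.00591), Krt7 (1.81 ± 0.36, adjusted p = 0.00468), Msln (1.79 ± 0.43, adjusted p = 0.0145), Upk3b (1.62 ± 0.39, adjusted p = 0.0143), Krt19 (1.55 ± 0.37, adjusted p = 0.0143) and Krt18 (1.37 ± 0.38, adjusted p = 0.0297). Krt14 (1.21, adjusted p = 0.0510), Upk1b (1.12, adjusted p = 0.0963) and Muc16 (0.94, adjusted p = 0.0861) had positive values that did not pass, and Cdh1 had a value of -0.10 (adjusted p = 0.851). Krt18 lost its call when any 1 of female ventral 1, female dorsal 1, female dorsal 3, male ventral 6, male ventral 7, male dorsal 4 or male dorsal 6 was left out, with adjusted p between 0.0504 and 0.0582, and with the replicate block and the GC and length trend removed (0.0517). Krt14 gained a call without female ventral 2, male ventral 5 or male dorsal 5 (adjusted p down to 0.0168) and in edgeR (0.0472), Muc16 without female ventral 2 or male ventral 5 (down to 0.0250) and with the trend removed without (0.0306) or with the block (0.0331), and Upk1b without male ventral 4 (0.0367).

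Split by region, in a comparison chosen after seeing the data, the calls of higher male levels were found dorsally. Among dorsal libraries 8 of the 10 genes were called higher in males, where 2.46% of all genes were, and every male library lay above every female one for 9 of the 10, where 13.2% of all genes did so. The log2 difference was largest for Msln (2.89 ± 0.52, adjusted p = 0.00200, limma) and Krt8 (2.88 ± 0.45, adjusted p = 5.95e-04). Krt14 (1.72, adjusted p = 0.0693) and Cdh1 (-0.17, adjusted p = 0.872) did not pass. Among ventral libraries 0 of the 10 were called, where 3.33% of all genes were called higher in males. An unadjusted p under 0.05 was found for 2 of the 10, Krt7 and Krt8, and for 3874 of all 15772 genes in either direction. The ventral log2 differences ran from -0.03 (Cdh1) to 1.12 (Krt7) and were above 0 for each gene but Cdh1. The sexes overlapped for all 10, where in 9.98% of all genes every male library lay above every female one. For 9 of the 10 genes the 3 female dorsal libraries lay below all 10 other grouped libraries, which held for 4.9% of all genes. The difference between the dorsal and the ventral sex difference is the same contrast as the difference in regional change given above. That contrast called 0 of the 10 genes without the replicate block and 8 with it.

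**Figure D3:**
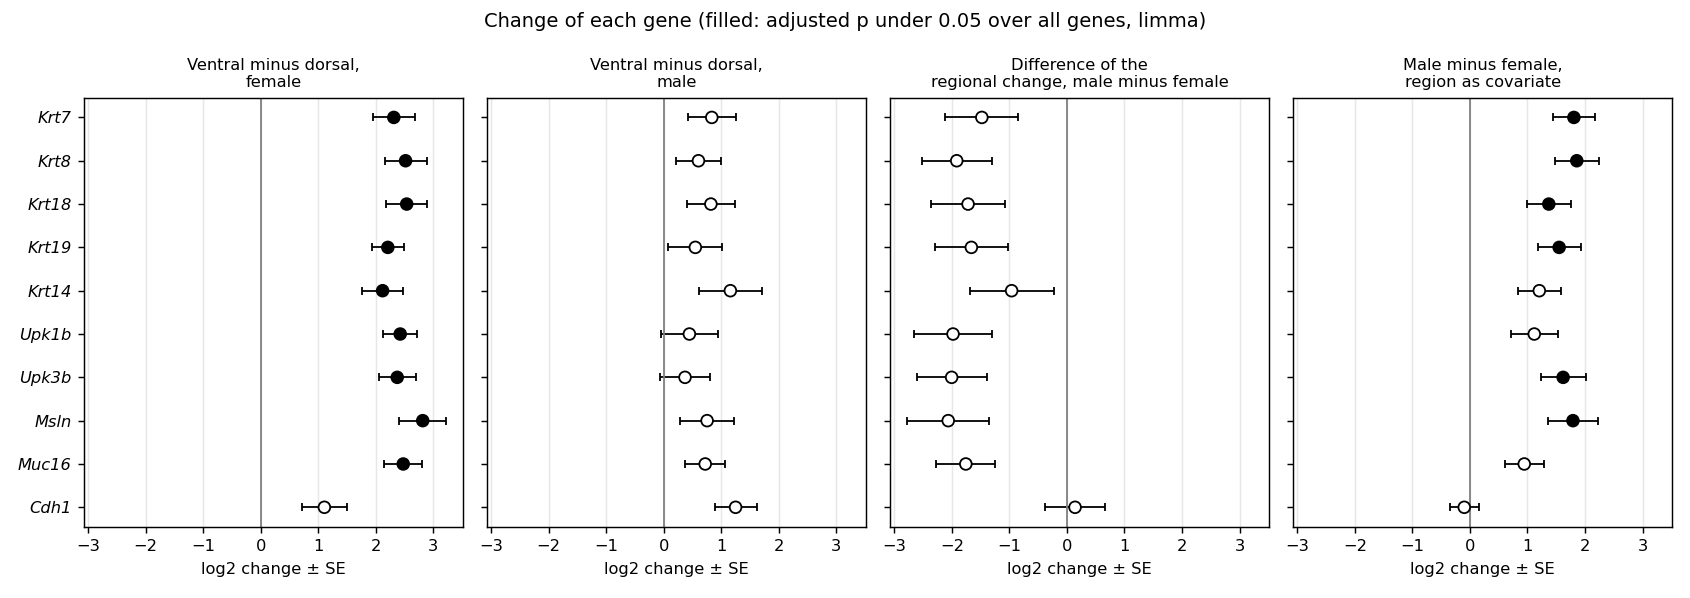
Log2 change with its standard error for each gene in the female regional, male regional, difference and sex comparisons (limma), with filled points where the adjusted p over all genes was under 0.05. Of the 10 genes 9 are filled in the female panel, 0 in the male panel, 0 in the difference panel without the replicate block, and 6 in the sex panel.

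Within these swings the proportions among members varied much less than their levels. Krt7 differed 36.0-fold and Krt8 36.1-fold between their lowest and highest libraries, whereas Krt7 over Krt8, both per kilobase, stayed between 0.424 and 0.684. Krt19 over Upk3b, per kilobase, stayed between 0.449 and 0.760, and Upk1b over Upk3b between 0.340 and 0.680. The lowest of the latter values were male: the mean was 0.604 ± 0.071 (SD, n = 3) in female ventral and 0.580 ± 0.10 (n = 3) in female dorsal libraries, against 0.431 ± 0.053 (n = 4) and 0.409 ± 0.065 (n = 3) in male ventral and male dorsal ones. Krt18 over its partner Krt8 ranged from 1.24 in male dorsal 5 to 3.15 in female dorsal 3. The summed type I keratins Krt18 and Krt19 stood above the summed type II keratins Krt7 and Krt8 in every library, by 2.84 to 6.27 times per kilobase. Msln over Upk3b ranged from 0.539 to 1.29, and the loosest ratios were Muc16 over Msln (4.80-fold between libraries) and Krt14 over Krt19 (6.69-fold). These ratios were chosen as descriptions and were not tested, and those with Krt8 carry the uncertainty of its shared windows.

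Of 14 keratins outside the member list, 7 are in the table and 6 were tested in female hearts. Limma called 0 of the 6, with 3 log2 changes above and 3 below 0 and a median of 0.03. Over both sexes 1 of 7 was called higher ventrally, where 9.8% of all genes were. In male hearts 0 of 7 were called, with a median of 0.54. Krt10, a suprabasal keratin and the most abundant of these keratins, had 18.2, 20.9 and 20.1 in female ventral and 19.7, 16.3 and 13.6 in female dorsal libraries. Of 10 other uroplakins and mucins, Podxl alone is listed, with a log2 change of 0.49 in female hearts (adjusted p = 0.0994). Of 32 epithelial junction and polarity genes, 25 were tested in female hearts: 11 were called higher and 2 lower ventrally, with a median of 0.96. Over all 14411 genes tested in females 14.5% were called higher ventrally and 1918 genes lower. The cornified envelope and linker proteins periplakin (Ppl, log2 3.0, adjusted p = 0.00349) and envoplakin (Evpl, 2.67, adjusted p = 0.00188) were higher ventrally, as were the claudin Cldn15 (2.54, adjusted p = 0.00260), P-cadherin Cdh3 (1.51, adjusted p = 0.00394) and the membrane linker ezrin, Ezr (1.30, adjusted p = 0.00191). The desmosomal genes Dsc2 (-1.62, adjusted p = 0.00618) and Pkp2 (-0.69, adjusted p = 0.0100), which cardiomyocytes also use, were lower ventrally. In male hearts 0 of 27 were called, as were 0 of all genes tested.

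Of the genes in these lists, Ppl, Evpl, Vim and Lmnb1 had regional changes that differed between the sexes without the block. Over all genes 2.73% were called in that test. Ppl and Evpl were 2 of 27 junction and polarity genes tested. Vim and Lmnb1 were among 7 other intermediate filament and related genes, and no gene of the other lists was called. The male change was smaller for Ppl (-2.77, adjusted p = 0.0444, limma), Evpl (-2.31, adjusted p = 0.0317) and Vim (-0.95, adjusted p = 0.0195) and larger for Lmnb1 (1.01, adjusted p = 0.0129), which codes for a nuclear lamin. Ppl had 16.9, 44.4 and 35.6 in female ventral and 0.670, 5.47 and 4.32 in female dorsal libraries, against 14.3 to 37.1 in male ventral and 12.6 to 26.1 in male dorsal libraries. Female dorsal libraries were again the low ones. Of 12 epithelial transcription factors 6 were tested in female hearts, and Klf4 was higher (1.62, adjusted p = 8.95e-04) and Grhl3 lower (-1.72, adjusted p = 0.0197) ventrally. Among 7 other intermediate filament and related genes, 4 were called higher and 1 lower ventrally in females. Of all 14411 genes tested in females, 14.5% were called higher and 1918 genes lower. Vimentin (Vim), the filament of mesenchymal cells that mesothelium also makes, had 807, 1053 and 1051 ventrally and 365, 335 and 422 dorsally (1.37, adjusted p = 8.44e-04). Keratin and vimentin RNA thus changed in the same direction, by unequal amounts.

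Epicardial genes outside the member list moved with it in female hearts. Of 14 transcription factors and enzymes of the epicardium, 10 were called higher ventrally and 0 lower, with a median of 1.83. Over all genes 14.5% were called higher ventrally. Wt1, a transcription factor of the epicardium, had 57.7, 70.7 and 78.0 ventrally and 27.3, 26.4 and 42.3 dorsally (log2 1.10, adjusted p = 0.00502, limma). Tbx18, whose locus carries the Cre allele of the label, had a log2 change of 1.08 (adjusted p = 0.0198) and Aldh1a2, which makes retinoic acid, one of 2.13 (adjusted p = 0.00151). Divided by the sum of this list, the member sum was 1.81 to 2.47 in female ventral and 0.527 to 1.75 in female dorsal libraries. These did not overlap. Male ventral libraries had 2.21 to 3.09 and male dorsal ones 2.37 to 2.69. Divided by the sum of 6 fibroblast markers, the member sum overlapped between female regions (0.139 to 0.199 ventrally, 0.0581 to 0.248 dorsally). Divided by the sum of cardiomyocyte markers, it did not (0.0579 to 0.122 and 0.00906 to 0.0168). Abundant genes weigh most in such sums: Upk3b held 90.2 of the 219 normalized CPM of the members in female dorsal 1. In male hearts 0 of the 14 were called, as were 0 of all genes tested. Over both regions 4 of the 14 were called higher in males in limma, where 4.4% of all genes were. Wt1 was among the 4 (0.95, adjusted p = 0.0313).

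Of the other cell markers, those of fibroblasts and macrophages moved with region in female hearts, where 14.5% of all genes were called higher ventrally. Fibroblast markers were called higher ventrally in female hearts for 4 of 6, with the list summing to 8546 to 15811 in female ventral, 2428 to 3778 in female dorsal, 8530 to 19929 in male ventral and 5984 to 10169 in male dorsal libraries. Macrophage markers were called higher for 5 of 6, with sums of 149 to 283, 51.0 to 85.7, 155 to 375 and 89.3 to 191 in the same order. Blood endothelium markers had 0 of 6 called and a median of 0.08 in female hearts, with sums of 738 to 1085 ventrally and 718 to 1250 dorsally. Ventricular cardiomyocyte markers had a median of -0.23 with 2 of 10, Ttn and Ryr2, called higher ventrally, and summed to 20178 to 29351 in female ventral, 24205 to 35746 in female dorsal, 13736 to 28956 in male ventral and 28089 to 38222 in male dorsal libraries. No marker of these 4 lists was at 0 in all libraries of a group. The part of these cells in the results for the 10 genes was not tested.

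**Figure D4:**
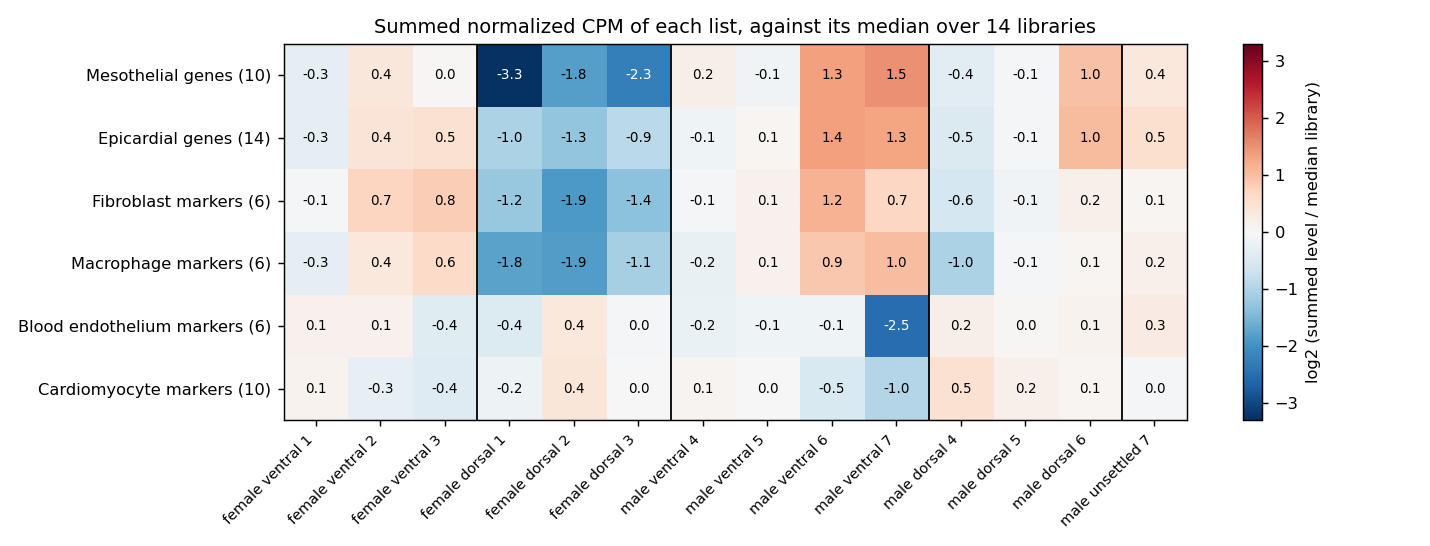
Summed normalized CPM of the 10 genes and of 5 other lists in each library, as log2 of the ratio to the median of the 14 libraries. The female dorsal columns are low for the 10 genes (-3.3, -1.8 and -2.3), for epicardial genes (-1.0, -1.3 and -0.9), for fibroblast markers (-1.2, -1.9 and -1.4) and for macrophage markers (-1.8, -1.9 and -1.1), and male ventral 7 is low for blood endothelium markers (-2.5).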

How the data were processed

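RNA was purified from pools of 2 dissected layers, and poly(A) libraries made from 40 ng of total RNA were sequenced as single reads of 60 bases. The authors trimmed adapters with cutadapt, estimated counts per gene on GRCm38 with RSEM (version 1.3.1 in the submitters' processing notes) and normalized with limma, with a filter of 1 CPM in 3 or more samples. The deposited values are a signal, normalized CPM for 15894 genes, and their strand setting is not given in the sources used here. They came out as whole reads (less an offset of 0.5, tolerance 0.02 reads) for 100.0% of values, so edgeR could be run on recovered reads as an alternative. The count test called 3650, 0, 2480, 380 and 1540 genes in the female, male, both-sex, difference and sex comparisons, and 9, 0, 8, 0 and 7 of the 10 genes.

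Models were fitted with limma 3.58.1 (lmFit, eBayes with trend; R 4.3.3) to log2(value + 1) of the genes that reached 1 in 3 or more of the fitted libraries. The pseudocount understates the change of low genes. P-values were adjusted by Benjamini-Hochberg over all genes tested and called under 0.05. Replicates are separate pools of hearts, and floors cover counting error only. A value at or under 3 reads was taken as the floor. Same-numbered ventral and dorsal libraries were checked for pairing: their deviations from the group means correlated over 15772 genes with r = 0.187, 0.169 and 0.270 in females and 0.427, 0.175 and 0.351 in males, and no source says what a number stands for. Alternatives were a pseudocount of 0.1, no filter, median-of-ratios scaling, edgeR 4.0.16, removal of the GC and length trend (splines of 5 degrees of freedom), the replicate block with and without that removal, and each library left out. Scripts were tested on simulated data.

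The 10 genes, the other lists and the tests were chosen with earlier results of these data known. Named besides the 10 are list members that did not overlap between groups or were the most abundant of their list, and the 10 genes most like the members in pattern.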

Additional observations from a re-analysis of the deposited data

Results flagged for a closer look

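The labels of a male library disagree, its title saying dorsal and its tissue entry ventral, and its values entered no comparison. It held 91.7 normalized CPM of Krt7, 88.6 of Krt8, 122 of Krt18, 264 of Krt19 and 5.58 of Krt14. It held 284 of Upk1b, 1187 of Upk3b, 644 of Msln, 23.9 of Muc16 and 3.42 of Cdh1. All 10 were above the limit of 3 reads, which is 0.135 in this library. Krt14 was below all 4 male ventral libraries and Muc16 and Cdh1 were above all 3 male dorsal ones. Among the 4 male ventral libraries Dixon's gap criterion marked no library for any of the 10 genes, and groups of 3 were not tested.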

How the results depend on the processing

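Of the results with a test, all 130 of the female and all 140 of the male regional comparison kept their direction and their side of the threshold, as did 175 of 200 over both sexes, 178 of 200 for the difference and 192 of 220 for the sexes. The 220 include the fits within the dorsal and within the ventral libraries, which estimate another quantity than the sex comparison over both regions. Leaving out each library in turn gave 9 to 9, 0 to 0, 7 to 10, 0 to 0 and 5 to 8 genes called in these 5 comparisons. With the replicate block 8 genes were called for the difference, and 8 with the block and the GC and length trend removed. Alone, the block changed no other call of the 10 genes. For the sexes, in which a number is nested, it could enter only as a random term with a consensus correlation of 0.0124, so the sex values hardly tested it. Within the ventral libraries, added after seeing the data, 0 were called between the sexes. For Cdh1 the difference between the sexes turned from 0.14 to -0.0398 with the block and -0.055 with the block and the trend removed. Without 1 library it ran from -0.11 to 0.44, being -0.02 without female ventral 3, -0.08 without female dorsal 3, -0.04 without male ventral 7 and -0.11 without male dorsal 4, and its sex value of -0.10 ran from -0.19 to 0.0348 without 1 library, being 0.0348 without female ventral 2, 0.0015 without female dorsal 3 and 0.01 without male dorsal 4. The cause was not tested. Over all genes the calls fell from 4007 to 2158 without female ventral 2 in females and from 2974 to 1429 without female dorsal 2 over both sexes. For the difference they were 431, 804 with the block and 260 without female dorsal 2, and in males 0, 76 with the block, 61 with the block and the trend removed, and 12 without male dorsal 6. Removing the GC and length trend moved the split over both sexes from 1545 higher and 1429 lower to 1001 and 1692. Depth limits Cdh1, with 0 to 96 reads per library.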

Other observations

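The genes whose log2 levels across the 14 libraries were most like the mean of 9 of the members (all but Cdh1, whose level is too low) came from several functions. Lgals7, a galectin of epithelia, was first of 15870 genes ranked (Pearson r = 0.988), followed by Myo5b, a motor of membrane recycling (0.977), and Crip1 (0.977). The others were the tetraspanin Cd82 (0.975), Clic3 (0.975), Cyp2s1 (0.973), the sulfotransferase Chst4 (0.970), the lipid transfer protein Pltp (0.970), Ddah2 (0.967) and the calcium-binding S100a6 (0.965). These r values describe libraries that share sex, region and pool number, and have no test. Within the 6 female libraries r ran from 0.974 to 0.996 and within the 8 male ones from 0.866 to 0.975. Lgals7 had a mean of 30.5 in female ventral, 3.39 in female dorsal, 46.5 in male ventral and 25.1 in male dorsal libraries, and Myo5b had 77.1, 10.2, 116 and 67.0.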
